A study of Mus musculus with 4 samples.

Results

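Among mouse MLL-AF9 leukaemia cells, 546 of 5456 kept cells (10%) were chosen by the level of 5 mitotic genes, Ccnb2, Cenpa, Cdc20, Cdkn3 and Ube2c. The score of a cell was the mean over these genes of the natural log of 1 plus its unique molecular identifiers (UMIs, each standing for 1 captured transcript) per 10000, and the 10% of kept cells with the highest score are called members here. A barcode was kept where mitochondrially encoded genes held at most 10% of its UMIs, which left out 208 of 5664 barcodes. The score genes of the members are high by construction, and the cells were not sorted or timed by cell cycle phase.

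The cells came from c-Kit+ marrow of Hif-1alpha Lox/Lox; CreERT2 mice that had received by retrovirus the MLL-AF9 fusion, a driver of acute myeloid leukaemia, and they were grown first in wild type mice. Mice transplanted with such primary leukaemias were given 1 mg tamoxifen, which switches on the Cre, or vehicle for 5 days from day 10. The 4 samples were 1 each of Hif-1a KO with chemotherapy, Hif-1a wt with chemotherapy, Hif-1a KO with PBS and Hif-1a wt with PBS. Mice on chemotherapy got 5 days of cytarabine (100 mg/kg) and 3 days of doxorubicin (3 mg/kg), and GFP+ marrow cells of C57BL6 mice aged 11 weeks were sorted 3 days after treatment ended. All samples share the floxed allele, the inducible Cre and the fusion gene, and the labels do not say how many mice gave a sample. Barcodes carry 1 of 4 suffixes (1 to 4), which no source used here ties to samples. Members were therefore compared with the other kept cells of their own suffix, no genotype or treatment was compared, and p-values were not computed because cells cannot stand for replicates.

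A dividing cell copies its DNA in S phase, prepares in G2 and separates its chromosomes in mitosis. Cyclin B with the kinase Cdk1 drives entry into mitosis, and the anaphase-promoting complex, a ubiquitin ligase, then marks cyclin B and other proteins for destruction so that the chromosomes part and the cell leaves mitosis. Many genes of this machinery are transcribed in G2 and mitosis through promoters that carry CCAAT boxes, bound by the factor NF-Y, and a cell cycle homology region (CHR), bound by complexes that contain the MuvB core.

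Of the score genes, Ccnb2 encodes a mitotic B-type cyclin, Cenpa the histone H3 variant that marks centromeres, and Cdc20 an activator of the anaphase-promoting complex. Ube2c encodes a ubiquitin-conjugating enzyme of that complex, and Cdkn3 a phosphatase that acts on cyclin-dependent kinases. The 120 bases before the start of each score gene are shown because both promoter elements recur in the genes that define the members, with Cdk1, the kinase of cyclin B, Ccnb1, the gene with the highest ratio outside the score among the more abundant genes, and Ung, the gene with the lowest ratio in members among genes of at least 20 CPM (counts per 1000000 UMIs), for contrast. Sequences are from RefSeq on GRCm38.p6, 5′ to 3′ on the strand of the gene. Capitals mark the CCAAT box, which reads ATTGG where it lies on the opposite strand, and the CHR letters TTTGAA, which on the opposite strand read TTCAAA.
Ccnb2 (chr9:70421555-70421674, minus strand): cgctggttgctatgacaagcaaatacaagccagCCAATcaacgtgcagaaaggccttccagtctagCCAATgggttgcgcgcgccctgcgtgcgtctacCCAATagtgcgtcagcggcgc
Cenpa (chr5:30666766-30666885, plus strand): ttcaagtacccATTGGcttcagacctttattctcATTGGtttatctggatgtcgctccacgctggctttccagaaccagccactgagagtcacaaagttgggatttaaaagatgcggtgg
Cdc20 (chr4:118437344-118437463, minus strand): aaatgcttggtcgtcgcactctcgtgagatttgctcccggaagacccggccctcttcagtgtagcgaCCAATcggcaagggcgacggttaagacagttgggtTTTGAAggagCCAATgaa
Cdkn3 (chr14:46760421-46760540, plus strand): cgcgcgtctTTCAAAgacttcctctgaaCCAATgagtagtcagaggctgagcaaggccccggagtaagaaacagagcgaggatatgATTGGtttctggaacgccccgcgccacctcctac
Ube2c (chr2:164769809-164769928, plus strand): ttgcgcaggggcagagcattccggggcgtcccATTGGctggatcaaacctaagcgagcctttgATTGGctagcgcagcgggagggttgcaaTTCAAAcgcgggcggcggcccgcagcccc
Cdk1 (chr10:69352913-69353032, minus strand): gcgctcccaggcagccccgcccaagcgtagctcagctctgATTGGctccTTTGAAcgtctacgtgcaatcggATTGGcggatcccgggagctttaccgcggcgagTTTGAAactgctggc
Ccnb1 (chr13:100786487-100786606, minus strand): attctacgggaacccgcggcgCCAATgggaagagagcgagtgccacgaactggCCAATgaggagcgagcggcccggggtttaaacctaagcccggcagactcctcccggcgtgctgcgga
Ung (chr5:114130315-114130434, plus strand): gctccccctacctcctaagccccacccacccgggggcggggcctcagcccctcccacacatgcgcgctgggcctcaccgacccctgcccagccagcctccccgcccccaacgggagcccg
In the whole window of 250 bases before to 50 bases after the start, each of the 5 score genes held both TTTGAA and CCAAT on either strand. Counted from the gene's start, with no position 0, the TTTGAA of Cdc20 began at -18 and those of Cdk1 at -71 and -15. Ube2c and Cdkn3 carried it on the opposite strand at -29 and -111. In Cenpa it lay after the start, at 17, and in Ccnb2 at -167 and 5, outside the printed bases. No match of TTTGAA overlapped a match of CCAAT in the bases shown, and in Ube2c the CCAAT at -186 overlapped its opposite-strand neighbour at -183. The window of Ccnb1 held CCAAT at -99 and -67 but no TTTGAA, and that of Ung neither motif.

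The score formed a continuous range with no gap at the cut. Its lowest value in a member was 0.834807 and its highest in another kept cell 0.834622, and 56 members and 35 other cells lay within 0.05 of the cut. The median score of members was 1.22, the highest 2.44, and 3324 kept cells (60.9%) had no UMI of any score gene. Of the members, 206 had UMIs of all 5 genes, 201 of 4, 129 of 3 and 10 of 2, while 221 other cells also had UMIs of at least 3.

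**Figure D1:**
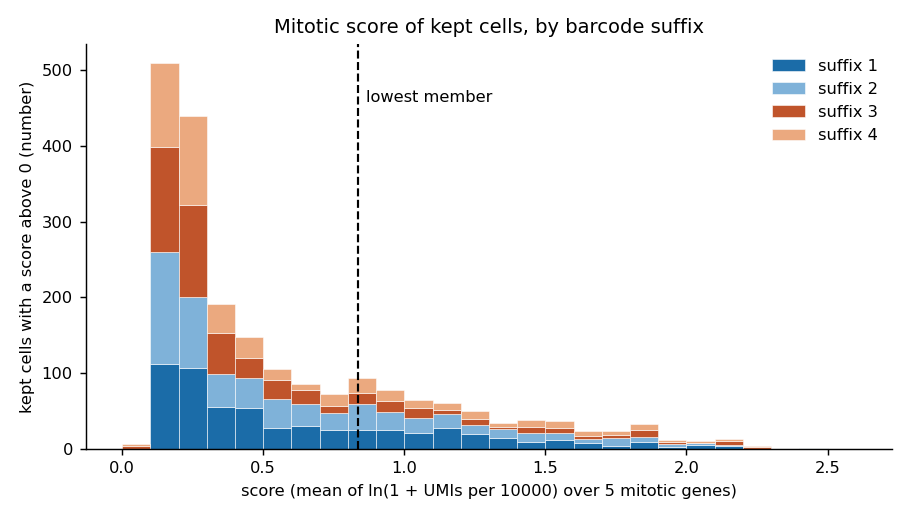
Kept cells with a score above 0 (y axis, number of cells, stacked by barcode suffix) against the mitotic score (x axis, natural log scale as defined in the text). The dashed line stands at the lowest member, and the bins on both sides of it are filled with no gap; the 3324 cells with a score of 0 are not drawn.

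Members made up 14.5% of kept cells in suffix 1 (170 of 1174, with an exact binomial 95% interval from 12.5 to 16.6) and 12.8% (160 of 1251; 11.0 to 14.8) in suffix 2. The share was 6.09% (99 of 1625; 4.98 to 7.37) in suffix 3 and 8.32% (117 of 1406; 6.93 to 9.89) in suffix 4. The intervals cover counting error only. Suffixes 1 and 2 thus held larger shares of members than suffixes 3 and 4, and the order of the 4 shares was the same when cells were thinned to 3000 UMIs, at 14.3%, 13.2%, 5.63% and 8.21%. The cells without any UMI of the score genes ran the other way: a score of 0 was found in 49.5%, 53.2%, 69.3% and 67.7% of the cells of suffixes 1 to 4.

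Members were deeper than the other cells. The median UMIs per cell were 7101.5, 7462, 8091 and 7888 in members of suffixes 1 to 4, against 5944.5, 6300, 5137.5 and 5160 in the other kept cells, a ratio between 1.18 and 1.57. Median genes per cell were 2312, 2324.5, 2327 and 2256 in members, against 1995.5, 2035, 1666 and 1694 in the others. Thinned to 3000 UMIs per cell, which left out 12 members and 499 other cells, they were 1333, 1301.5, 1238 and 1240 in members and 1289, 1253.5, 1183.5 and 1190 in the others. Members thus also held more genes per cell at equal depth. Members' median mitochondrial share of UMIs lay between 2.54% and 2.73%, and that of the others between 2.52% and 2.91%. The summed members held between 827533 and 1250874 UMIs per suffix, so that a gene with no UMI in members has an upper limit (3 counts) between 2.40 and 3.63 CPM. Scrublet marked 27 of 5456 cells as doublets, 2 of them members, and at 0.495% of cells these calls were not relied on, so doublets remain. The same barcode sequence occurred under more than 1 suffix for 34 barcodes, 1 of which was a member.

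Suffixes 1 and 2 differed from suffixes 3 and 4 in myeloid genes. Summed neutrophil genes stood at 2545, 2559, 24418 and 22533 CPM in members of suffixes 1 to 4 and at 785, 1598, 18058 and 12191 CPM in the other cells. The median cell ran the other way, at 1.497, 1.61, 8.85 and 4.90 neutrophil UMIs per 10000 in members and 1.75, 2.50, 10.4 and 6.65 in the other cells, so the sums are not those of a typical member. Summed macrophage genes, 7 of 14 of them with no UMI in members, stood at 149, 172, 410 and 453 CPM in members and at 323, 410, 1966 and 1521 CPM in the others. Ratios were therefore taken within suffixes. Hif1a, the gene targeted in the study, had 28.0, 32.0, 14.5 and 23.8 CPM in members of suffixes 1 to 4 and 40.5, 35.7, 30.9 and 26.9 CPM in the others. It was lower in members of each suffix (log2 ratio -0.52, -0.15, -1.04 and -0.17) but short of 1.5-fold in 3 of the 4, and a count of transcript 3′ ends outside the deleted part does not check the genotype.

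Each score gene was high in members also when it was left out of the score. The members were chosen with earlier results of these data known, so this describes the score and is no test. With Ccnb2 left out and the members chosen on the other 4 genes, Ccnb2 stood at 473, 404, 456 and 441 CPM in members of suffixes 1 to 4 and at 78.8, 68.5, 34.5 and 30.3 CPM in the others. Treated alike, the median log2 ratio over suffixes was 3.13 for Ccnb2, 3.61 for Cenpa, 3.53 for Cdc20, 3.68 for Cdkn3 and 4.13 for Ube2c. Each gene left out changed the members little, with 489 to 505 of the 546 kept. In a further setting each UMI was put at random in 1 of 2 parts, members were chosen on the first part and levels were read from the other, which kept 461 members (84.4%) and gave log2 ratios of 3.12, 3.55, 3.44, 3.83 and 4.30 in the same order of genes. Each gene still took part in the choice there, so these ratios are no test either.

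Outside the score, members were high in genes of the spindle, the kinetochore and the mitotic kinases. The published list of G2 and M phase genes summed to between 9267 and 11192 CPM in members and between 2766 and 3777 CPM in the others, in each case without the score genes. The label was thus met by genes outside the score, though these were read in the same cells. Of 6586 genes with a mean of at least 10 CPM in kept cells, 137 (2.08%) were at least 1.5-fold higher in members than in other cells within each of the 4 suffixes, and 89 (1.35%) were at least 1.5-fold lower. The members were chosen in the same cells, so the counts describe them, are no test, and nothing is read from these shares. Of the 137, 87 belong to a list of mitosis or cell cycle genes and 50 to no list used here. Of the 89, 8 belong to a cell cycle list and 73 to none. The median log2 ratio over all measured genes was 0.04. Scaling by TMM (trimmed mean of M-values) factors in place of total UMIs moved that median to -0.04 and the counts to 114 higher and 123 lower. TMM factors thus turned the balance of higher and lower genes round, while each of the 114 was among the 137 and each of the 89 lower genes stayed lower.

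**Figure D2:**
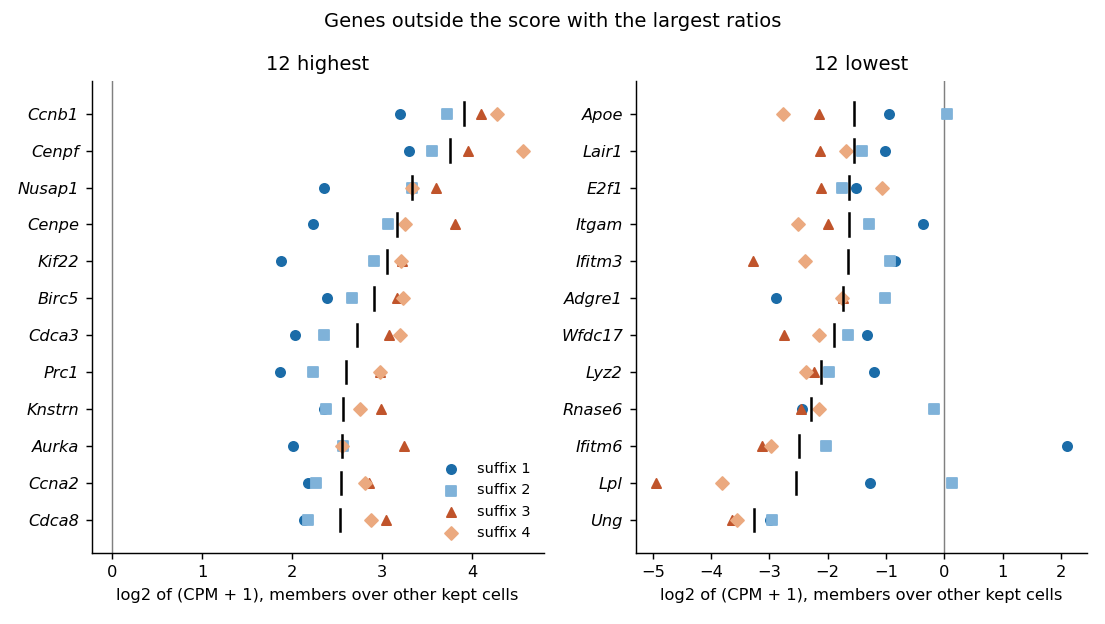
Log2 of (CPM + 1) in members over (CPM + 1) in the other kept cells (x axis) for the 12 genes with the highest and the 12 with the lowest median among genes outside the score with a mean of at least 20 CPM; points are the 4 suffixes and the bar is their median. The 12 highest lie right of 0 in each suffix, from Ccnb1 at a median of 3.91 to Cdca8 at 2.53, whereas Apoe, Ifitm6 and Lpl on the low side lie above 0 in 1 suffix each.

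Ccnb1, the B-type cyclin that partners Cdk1 in mitosis, had the highest ratio outside the score among genes of at least 20 CPM. It is encoded on chromosome 13 (100778650 to 100786570, minus strand, GRCm38, GENCODE vM21). It stood at 209, 226, 187 and 188 CPM in members of suffixes 1 to 4, against 21.9, 16.2, 9.99 and 8.75 CPM in the other cells, a median of 15.04-fold higher. The levels in members lay within a narrow range, and the larger ratios of suffixes 3 and 4 went with lower levels in the other cells. Pooled over suffixes the ratio was 14.98 (95% interval 13.3 to 16.9), which covers counting error only. Ccna2, the cyclin of S and G2 phase, stood at 136, 108, 152 and 161 CPM in members and at 29.2, 21.5, 20.2 and 22.0 CPM in the others (median log2 ratio 2.54).

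Of 14 measured genes among mitotic kinases, cyclins and phosphatases, 9 were higher in members and 0 lower (median log2 ratio 1.69). Plk1, a kinase of spindle assembly and mitotic exit, stood at 87.1, 92.0, 85.8 and 82.3 CPM in members and at 8.60, 7.45, 5.38 and 6.63 CPM in the others (log2 3.45). Aurka, the centrosomal Aurora kinase, had 88.7, 111, 100.3 and 79.3 CPM in members and 21.3, 17.9, 9.66 and 12.7 CPM in the others (2.56). The small subunits that bind cyclin-dependent kinases, Cks1b and Cks2, were higher at 1.65 and 1.56. The 5 that did not reach 1.5-fold in each suffix were Ppp1cc, a catalytic subunit of protein phosphatase 1, at 0.47, Vrk1 at 0.17, Pkmyt1 at 0.08, Ppp2r5a at -0.18 and Cdc25a, a phosphatase of the G1 to S transition, at -0.43.

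Spindle motors and microtubule proteins were higher in 25 of 27 measured genes, with 0 lower and a median of 2.04. Hmmr, a spindle-associated protein, stood at 55.2, 81.3, 96.7 and 114 CPM in members and at 6.88, 4.78, 6.48 and 6.50 CPM in the others (3.77). Nusap1, which bundles spindle microtubules, had 91.9, 104, 167 and 146 CPM in members and 17.2, 9.42, 12.9 and 13.5 CPM in the others (3.34). Kif2c, a kinesin that depolymerises microtubules at centromeres, stood at 3.16, Kif22, a chromosome-arm kinesin, at 3.06 and Prc1, which organises the central spindle, at 2.60. The abundant tubulins moved less, Tubb5 at 1.51 with 1864, 1632, 2094 and 2162 CPM in members and 807, 697, 599 and 621 CPM in the others, and Tuba1b at 1.19. The genes that missed the size rule were Tubb2a at 0.87 and Stmn1, a microtubule-destabilising protein, at 0.53.

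Kinetochore and centromere genes were higher in 15 of 24 (median 1.28) and genes of the spindle checkpoint and chromosomal passenger complex in 7 of 10 (median 1.65), with 0 lower in either. Cenpf, a large outer kinetochore protein, stood at 99.9, 113, 164 and 158 CPM in members and at 9.23, 8.72, 9.66 and 5.70 CPM in the others (3.76). Cenpe, the kinetochore kinesin, was at 3.16, Nuf2 of the Ndc80 complex at 2.75 and Knstrn, a kinetochore and spindle protein, at 2.56. Birc5 and Cdca8, survivin and borealin of the passenger complex, were at 2.91 and 2.53, while its kinase Aurkb was at 1.73. Genes that missed the size rule included Cenpq and Cenph of the inner kinetochore, both at 0.63, and Zwint, an outer kinetochore protein, at 0.16. Zwint stood at 89.5, 78.8, 59.2 and 67.4 CPM in members and at 96.0, 74.3, 50.1 and 57.4 CPM in the others.

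Core subunits of the anaphase-promoting complex missed the size rule, while 4 of its partners passed it. Of 22 measured genes of the complex and its partners, 4 (18.2%) were higher in members and 0 lower (median 0.41). Over all measured genes 2.08% were higher and 1.35% lower. Of the 22, 21 had a median above 0. The 4 were Ccna2 and Ccnb1, both substrates of the complex, Fzr1, its second activator besides Cdc20, at 1.59, and Ube2s, the enzyme that lengthens its ubiquitin chains, at 1.33. None of the 14 measured core subunits reached the size rule, with medians from 0.06 for Anapc11 to 0.69 for Anapc15, and neither did Pttg1, securin, at 0.61 or Fbxo5, an inhibitor of the complex, at 1.24. Fzr1 stood at 48.8, 60.8, 73.7 and 65.5 CPM in members and at 19.1, 19.7, 20.5 and 20.9 CPM in the others.

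Condensin and cohesin genes, listed with 2 chromosome proteins, were higher in 8 of 18 (median 0.72). Those 2, Mki67, which coats mitotic chromosomes, and Top2a, which untangles DNA, stood at 2.35 and 1.86. Top2a had 209, 236, 356 and 348 CPM in members and 102, 75.8, 76.8 and 80.9 CPM in the others. The condensin genes Ncapg and Smc2 were at 2.07 and 1.52, while Smc1a and Smc3 of cohesin were at 0.63 and 0.12 and missed the rule. Variant histones and chromatin proteins were higher in 11 of 18 (median 0.96). Hmgb2, an abundant DNA-bending protein, stood at 2709, 2454, 3222 and 3346 CPM in members and at 996, 892, 831 and 938 CPM in the others (1.65), and H2afx at 2.19.

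Several histone transcripts were also higher. Of 69 genes of the replication-dependent histone clusters, 9 were measured and 5 of them were higher in members (median 1.31). Hist1h2ap stood at 115, 59.9, 1073 and 374 CPM in members and at 55.4, 22.9, 189 and 61.0 CPM in the others (1.92). Its level differed more between suffixes than between members and other cells of one suffix. Hist1h2bc stood at 185, 202, 157 and 138 CPM in members and at 57.7, 80.3, 32.4 and 39.0 CPM in the others (1.73). These histone genes have near-identical copies between which the counting may have divided reads, so their single levels are uncertain. How fully these 3′ libraries capture histone transcripts was not tested, so the counts are not read as total histone transcript levels.

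Of 11 measured regulators of G2 and mitosis genes 1 was higher in members and 2 were lower. Over all measured genes 2.08% were higher and 1.35% lower, and nothing is read from so few genes. The higher regulator was Nfyb, a subunit of NF-Y, at 0.94 with 59.2, 60.8, 55.6 and 71.4 CPM in members and 39.1, 33.5, 26.5 and 30.0 CPM in the others. Its log2 ratio in suffix 1 was 0.5851 against a limit of 0.5850, so this call is marginal. The other NF-Y genes, Nfyc at 0.49 and Nfya at -0.15, and Lin54, the CHR-binding subunit of MuvB, at 0.75, missed the size rule. E2f1, an activator of S phase genes, and Mybl2, a MuvB partner, were lower. E2f1 stood at 19.99, 15.6, 10.9 and 23.8 CPM in members and at 58.7, 54.9, 50.2 and 50.8 CPM in the others (-1.63). Mybl2 stood at 8.79, 4.93, 3.63 and 5.95 CPM in members and at 19.1, 11.96, 10.7 and 10.7 CPM in the others (-1.08), on 26 UMIs in members.

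In the promoter windows of RefSeq, TTTGAA was found on either strand in 50.8% (61 of 120 windows) of genes higher in members, against 12.4% (844 of 6792) of measured genes and 17.9% of all 32851 windows. CCAAT was found in 60.8%, against 38.1% and 37.4%, and both motifs in 40.0%, against 5.02% and 6.95%. Windows were matched for 112 of the 137 higher genes and 5367 of the 6586 measured genes, and a gene can have several. Too few of the lower genes had a window (78.7%) for a share to be given. A match of letters is a description and shows no binding.

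**Figure D3:**
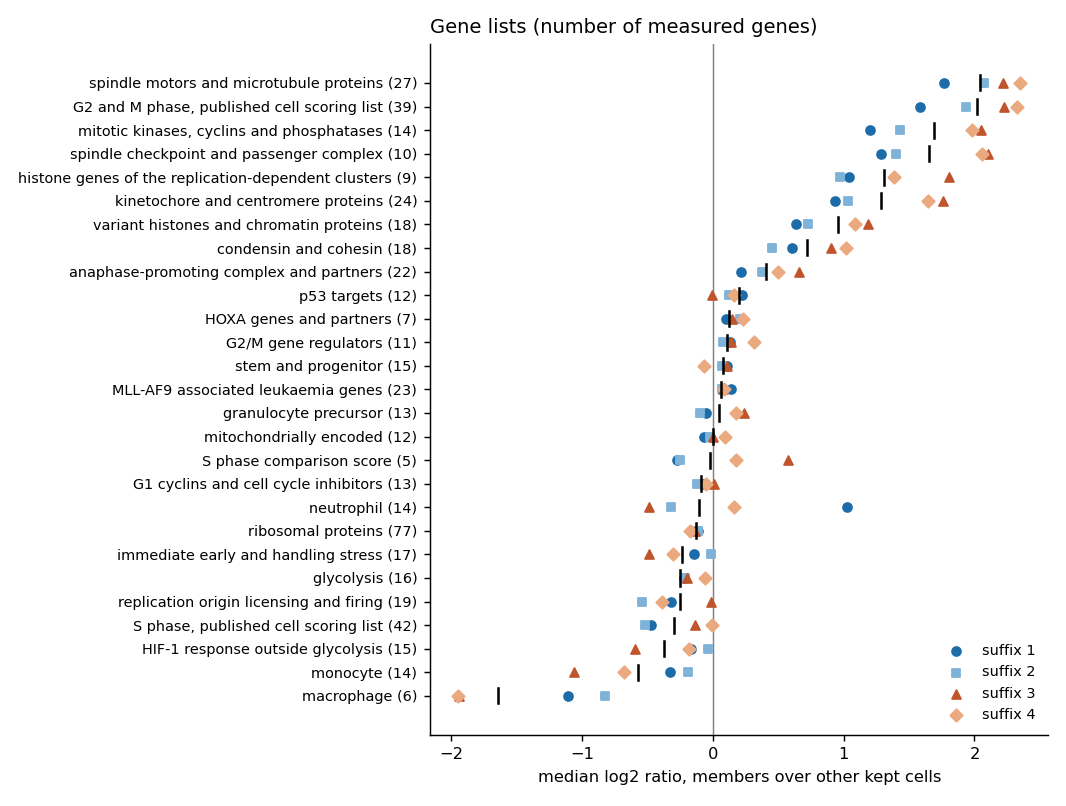
Median log2 ratio of members over other kept cells (x axis) for each gene list with at least 5 measured genes, which are numbered in brackets; points are the 4 suffixes and the bar is the median of the genes' medians. Spindle, kinase, checkpoint and kinetochore lists lie between 0.93 and 2.35 in each suffix, ribosomal and mitochondrially encoded genes near 0, and macrophage genes lowest.

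Single genes of G1 and of entry into S phase were low in members. Ung, which removes uracil from DNA and lies on chromosome 5 (114130386 to 114139323, plus strand), stood at 14.4, 11.5, 3.63 and 3.97 CPM in members of suffixes 1 to 4, against 121, 96.3, 56.5 and 57.3 CPM in the others (median log2 ratio -3.27). It had 39 UMIs in all members together, and its pooled ratio was 0.114 (95% interval 0.0806 to 0.156). The E-type cyclins, which start S phase with Cdk2, were lower, Ccne1 at -1.61 and Ccne2 at -1.95. Ccne2 stood at 4.797, 1.64, 2.42 and 2.98 CPM in members and at 21.1, 16.9, 12.3 and 13.3 CPM in the others. Ccnd1, a G1 cyclin, had 6 UMIs in members and 350 in the others, a pooled ratio of 0.120 (0.0438 to 0.264). Of 13 measured G1 cyclins and inhibitors, 3 were lower and 1 higher, Cdkn2d, an inhibitor of Cdk4 and Cdk6, at 0.81. Over all measured genes 1.35% were lower and 2.08% higher.

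The S phase list as a whole shifted less than the genes named from it here. Of 42 measured genes 0 were higher and 4 lower, Ung, Ccne2, Dscc1 at -1.13 and Gins2 at -0.81, and the median was -0.30 (-0.47, -0.52, -0.14 and -0.01 in suffixes 1 to 4). Against cells with a score of 0 that median was -0.05. The shares over all measured genes were 2.08% higher and 1.35% lower. Rrm2, a subunit of ribonucleotide reductase, stood at 148, 111, 127 and 97.2 CPM in members and at 224, 157, 97.5 and 96.5 CPM in the others, so its direction differed between suffixes. Among 19 genes of origin licensing and firing, Gins2 was lower and Dbf4, an activator of the origin kinase Cdc7, was higher at 1.96, with 51.2, 59.9, 73.7 and 75.4 CPM in members and 18.0, 15.3, 17.3 and 14.4 CPM in the others. Mcm6 and Mcm3, subunits of the replicative helicase, were at -0.74 and -0.77 and missed the size rule.

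Over 6 bands of the score the genes followed different courses. The bands were cells with a score of 0, the other non-members in 3 bands of equal size, and members in a lower and an upper band of 273 cells each. Median Ccnb1 over suffixes was 6.86, 13.1, 17.0, 37.6, 107 and 296 CPM from the lowest to the highest band, so most of its increase lay within the members. Ung was highest in the band just above 0 and lowest in members, at 78.0, 119, 77.6, 35.6, 9.27 and 6.80 CPM. The median of Rrm2 was highest in the third band, at 89.8, 187, 216, 174, 155 and 92.2 CPM, but its peak differed between suffixes. It was highest in band 2 in suffix 1 (312 CPM) and band 3 in suffix 2 (268 CPM). In suffix 3 the peak lay in band 5, the lower band of members (202 CPM), and in suffix 4 in band 4 (177 CPM). Elane was highest in band 2 in each suffix, at 6037, 8139, 3894 and 3831 CPM in suffixes 1 to 4. Its median over suffixes was 3472, 4965, 3481, 4316, 4231 and 3707 CPM from the lowest to the highest band. Median depth differed between bands, from 4912 UMIs per cell in the lowest to 8098 in the second and 7648 in the highest, and its part in these courses was not tested.

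**Figure D4:**
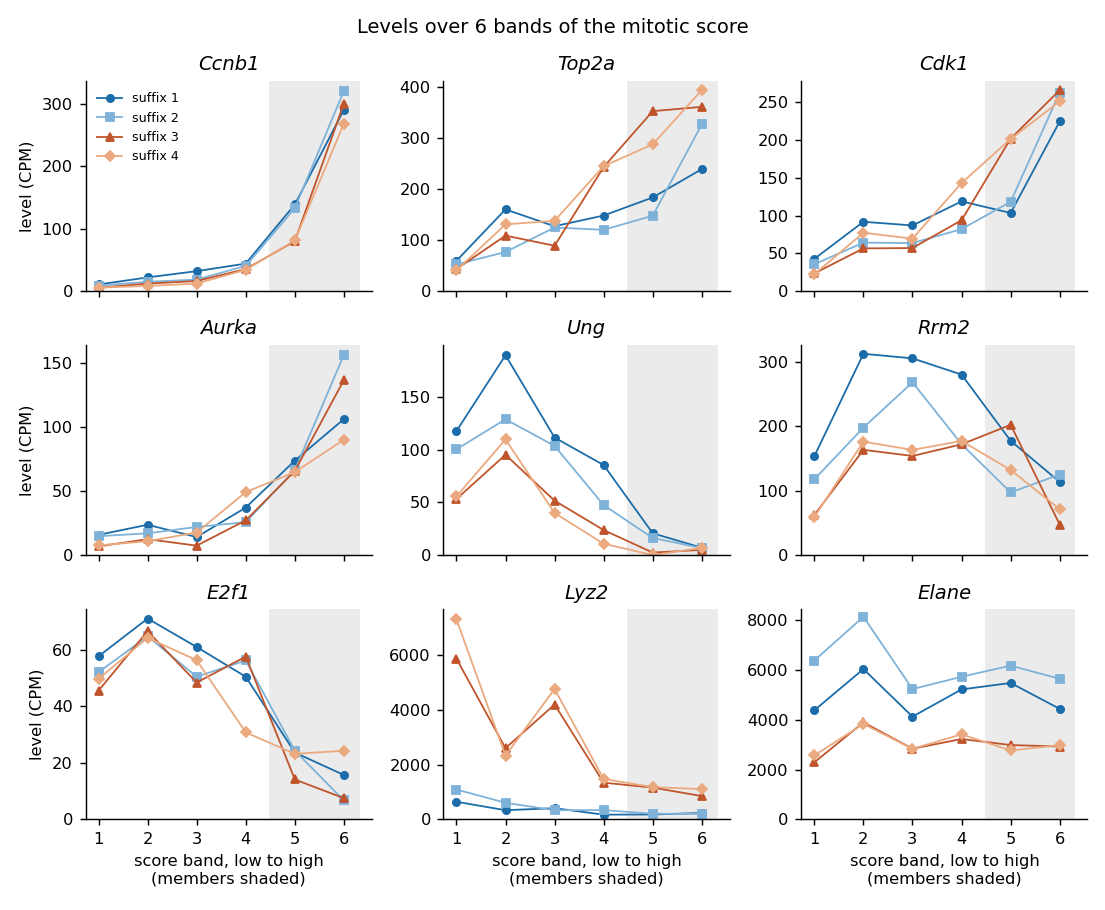
Levels in CPM (y axis, from 0) of 9 genes in 6 bands of the mitotic score (x axis, low to high), with a line for each barcode suffix; the shaded bands 5 and 6 are the members. Ccnb1, Cdk1 and Aurka climb into the members, Ung and E2f1 fall to their lowest levels there, and Elane is highest in band 2 in each suffix.

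Few members had high macrophage or monocyte levels. Of the 546 members 0 were among the 10% of kept cells with the highest macrophage level. By suffix, the 0 members allow shares of up to 2.15%, 2.28%, 3.66% and 3.10% (exact binomial), against 0.299%, 1.37%, 21.3% and 15.7% of other cells in suffixes 1 to 4. The gap was thus in suffixes 3 and 4, and in suffixes 1 and 2 no difference was detectable with these numbers of cells. For monocyte genes the shares were 0%, 0%, 1.01% and 0.855% of members and 0.199%, 1.19%, 16.9% and 21.0% of other cells. High neutrophil levels were found in 5.88%, 5.62%, 23.2% and 17.9% of members and in 1.69%, 2.93%, 15.01% and 15.9% of other cells, a larger share of members in each suffix. These members numbered 10, 9, 23 and 21. The exact binomial intervals of members and other cells overlapped in suffixes 2, 3 and 4. High granulocyte precursor levels were found in 19.4%, 23.1%, 3.03% and 3.42% of members and in 15.5%, 22.3%, 2.42% and 2.56% of other cells. Stem and progenitor shares were 10.6%, 8.75%, 3.03% and 3.42% of members and 11.8%, 8.80%, 9.70% and 11.2% of other cells, so that they were close in suffixes 1 and 2 and lower in members of suffixes 3 and 4. The granulocyte precursor shares and the stem and progenitor shares in members of suffixes 3 and 4 each rest on 3 and 4 cells.

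Some macrophage and monocyte genes were lower in members. Of 6 measured macrophage genes 2 were lower in members and of 14 monocyte genes 2, with 0 higher in either. Over all measured genes 1.35% were lower and 2.08% higher, and nothing is read from 2 genes of a list. Lyz2, lysozyme of macrophages and monocytes, stood at 199.9, 199.5, 1007 and 1133 CPM in members and at 463, 789, 4760 and 5846 CPM in the others (-2.11). Wfdc17, a secreted myeloid protein, was at -1.90, Adgre1, the macrophage surface protein F4/80, at -1.74 and Ifitm3, an interferon-induced membrane protein, at -1.66. With the highest 10% of neutrophil, monocyte and macrophage levels left out on both sides, an alternative chosen after the data were seen whose sums hold these genes themselves, Lyz2 was at -1.29, Ifitm3 at -0.84, Wfdc17 at -1.29 and Adgre1 at -1.44, while Ccnb1 was at 3.79 and Ung at -3.29. That setting left 135 genes higher and 88 lower, of which 129 and 68 were among those of the main comparison. Apoe, Lpl, Rnase6, Ifitm6 and Itgam, also among the 12 lowest, missed the rule because their direction or size differed in suffix 1 or 2. Cd74, the MHC class II invariant chain, had 2 UMIs in members and 519 in the others, a pooled ratio of 0.0270 (0.00326 to 0.0980). Of the 3 measured genes of its list the other 2, Flt3 at 0.32 and H2-Ab1, an MHC class II chain, at 0.23, had medians above 0. Cd74 was counted as lower, although in suffixes 1 and 2 its 0 counts in members allow levels above the 1.25 and 0.844 CPM of the others.

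No gene of the granulocyte precursor and neutrophil lists reached the size rule in each suffix. Over all measured genes 2.08% were higher and 1.35% lower, so nothing is read from counts of 0 in lists of this size. Of 13 measured granulocyte precursor genes 0 were called, with Elane, the primary granule elastase, at 5000, 5913, 2955 and 2886 CPM in members and at 4774, 6446, 2677 and 2838 CPM in the others. Of 14 measured neutrophil genes 0 were called, 5 had a median above 0, and the median of the list was -0.11 (1.03, -0.32, -0.49 and 0.16 in suffixes 1 to 4). The most abundant ones, S100a8 and S100a9, the subunits of calprotectin, were at 1.03 and 1.01 and reached 1.5-fold in suffixes 1, 2 and 4 but not in suffix 3. S100a9 stood at 536, 787, 6632 and 5628 CPM in members and at 130, 371, 4817 and 2941 CPM in the others. Without the cells of highest myeloid level its median was -0.05, in a setting that removes cells by a sum that holds S100a9 itself.

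Of 23 measured genes tied to MLL-AF9 leukaemia 1 was higher in members, Hmgb3 at 1.12, with 238, 168, 152 and 109 CPM in members and 124, 93.2, 43.9 and 43.8 CPM in the others. The share over all measured genes was 2.08% higher and 1.35% lower, and nothing is read from 1 gene in each direction. The lower gene was Myc, a growth-promoting transcription factor, at -1.02 with 26.4, 25.5, 7.25 and 8.93 CPM in members and 61.2, 61.5, 13.4 and 17.0 CPM in the others. Hoxa9 was at 0.35, Meis1 at 0.11, Mef2c at -0.03 and Cdk6 at -0.09, none of them past the size rule. The medians were 0.12 for HOXA genes and partners, 0.08 for stem and progenitor genes and 0.07 for the MLL-AF9 list, with the signs of the last 2 turned by TMM factors (-0.01 for both).

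Housekeeping and stress lists held no gene past the rule. Nothing is read from this, as over all measured genes only 2.08% were higher and 1.35% lower. The median was -0.13 for 77 ribosomal protein genes, 0.00 for 12 mitochondrially encoded genes, -0.25 for 16 glycolysis genes, -0.37 for 15 HIF-1 response genes outside glycolysis, -0.24 for 17 immediate early and handling stress genes and 0.20 for 12 p53 targets. Ribosomal protein genes were above 0 in 2 of the 77, with Rpl32 at -0.16 and Rps27 at -0.28. Aldoa and Pgam1, enzymes of glycolysis, were at -0.55 and -0.24, and Gapdh was at 0.02. Bnip3l, a mitophagy receptor induced by HIF-1, was at -0.61. Of the defining genes of other lineages, erythroid, megakaryocyte and T and NK lists had no measured gene. Their sums in members were 9.9 to 12.3, 0 to 5.6 and 0 to 4.1 CPM.

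Members were also set against S-phase-high cells, the 10% of kept cells with the highest score of 5 S phase genes (Rrm2, 2810417H13Rik, Ung, Tk1 and Rad51ap1). Both classes held 41 cells, which were left out on both sides. They were 8.24%, 4.38%, 8.08% and 10.3% of members of suffixes 1 to 4, against S-phase-high shares of 18.0%, 9.90%, 7.60% and 7.76% in other cells. Of 6581 measured genes, 179 (2.72%) were at least 1.5-fold higher in members in each suffix and 262 (3.98%) lower. Both classes were cut from scores of these cells, so nothing is read from these shares either. Median depth was 6825, 7431, 8091 and 7969 UMIs in members and 8903, 9051, 9770 and 8545.5 UMIs in S-phase-high cells of suffixes 1 to 4.

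The largest ratio among genes of at least 20 CPM was that of Hist1h2bc, at 205, 212, 168 and 153 CPM in members and 8.06, 11.4, 17.6 and 7.86 CPM in S-phase-high cells (median log2 ratio 4.11). The limits given above for histone counts hold here too. Ccnb1 was 5.37-fold and Cenpf 5.01-fold higher in members, and Knstrn and Cenpe were at 1.96 and 1.90. Of 39 genes of the published G2 and M phase list 19 were higher and 1 lower (median 0.74), and against all other kept cells the same list had 34 of 39 higher (2.02). Spindle motors and microtubule proteins had 15 of 27 higher and 1 lower (0.92), kinetochore genes 3 of 24 higher and 2 lower (0.17), and condensin and cohesin genes 1 of 18 higher and 1 lower (-0.13). Top2a stood at 173, 224, 333 and 323 CPM in members and at 256, 288, 311 and 303 CPM in S-phase-high cells (-0.14), with a direction that differed between suffixes. On the other side, 34 of 39 S phase genes and 12 of 19 origin genes were lower in members. Lig1, a DNA ligase of replication, was at -2.66, and Pcna, the sliding clamp of the replisome, was at -2.05 with 63.0, 48.2, 48.7 and 28.6 CPM in members and 223, 199, 208 and 241 CPM in S-phase-high cells.

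Members with and without a Ube2c UMI differed in other mitotic genes. A Ube2c UMI was found in 409 of the 546 members (74.9%), in 72.9%, 76.2%, 74.7% and 76.1% of those of suffixes 1 to 4, against 8.62% of the other kept cells, at median depths of 7562 and 5577 UMIs per cell. Members with such a UMI were deeper (median 8202 UMIs) than those without (6338), and all 41 members in the S-phase-high class were among them. This division was chosen after the values were seen, and Ube2c itself is fixed by it. The gene was picked for this difference, so the counts are descriptions. Of 2498 genes with a mean of at least 50 CPM, 36 (1.44%) were at least 1.5-fold higher in members with than without a Ube2c UMI in each suffix, and 1 (0.04%) was lower, Ube2g2, another ubiquitin-conjugating enzyme, at -1.01.

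Top2a stood at 263, 291, 438 and 407 CPM in members with a Ube2c UMI, against 24.7, 27.4, 61.2 and 43.1 CPM in members without (median log2 ratio 3.28). Cdk1 stood at 198.5, 231, 287 and 268 CPM with and at 24.7, 35.3, 38.9 and 30.8 CPM without (2.91). Members without a Ube2c UMI were thus near or below the levels of these genes in the non-member cells, 102, 75.8, 76.8 and 80.9 CPM for Top2a and 71.9, 51.5, 38.6 and 45.2 CPM for Cdk1. Nusap1 was at 3.15, Plk1 at 2.91, Aurkb at 2.32 and Aurka at 1.93. Their mean levels lay under the minimum of 50 CPM, and they had 16, 17, 20 and 24 UMIs in members without a Ube2c UMI. Other mitotic genes did not follow: Knstrn, also under that minimum, was at -0.10, Cenpa at -0.17, Cdkn3 at -0.39 and Ccnb2 at -0.45. The last 3 are score genes whose levels the cut ties to that of Ube2c. Hist1h2bc was at 141, 186, 136 and 95.8 CPM with and at 335, 263, 234 and 357 CPM without (-1.01), a difference short of the size rule in suffix 2.

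Neutrophil genes also differed along this division. S100a9 stood at 679, 884, 7944 and 6583 CPM in members with a Ube2c UMI and at 49.3, 423, 1907 and 653 CPM in those without (2.69), and Camp, a secondary granule peptide, at 478, 166, 5493 and 5752 CPM with and 24.7, 149, 851 and 123 CPM without, short of the size rule in suffix 2. Of 8 neutrophil genes measured here 4 were higher with a Ube2c UMI and 0 lower. Stefin genes of neutrophils, Gm5483, BC100530 and Stfa1, were higher too, in suffix 1 at 126, 125 and 202 CPM with and at 0, 0 and 3.52 CPM without. Suffix 1 held the largest log2 ratio of each, at 6.99, 6.98 and 5.49, and the smallest in any suffix were 1.95, 1.64 and 1.54. The counting may have divided reads between these near-identical copies, so their single levels are uncertain. The groups without a Ube2c UMI held 46, 38, 25 and 28 cells in suffixes 1 to 4, and the part of single cells and of depth in these levels was not tested. Elane was at 4710, 5540, 2788 and 2763 CPM with and at 5991, 7323, 3553 and 3529 CPM without (-0.35).

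**Figure D5:**
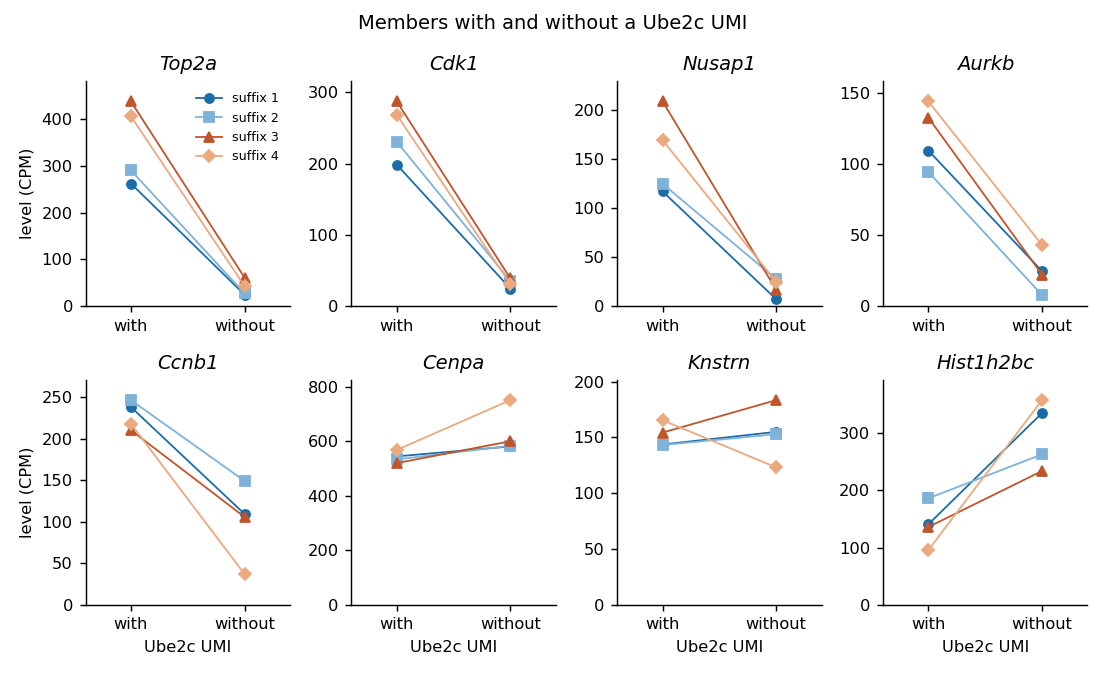
Levels in CPM (y axis, from 0) of 8 genes in members with a Ube2c UMI (left) and without one (right), with a line for each barcode suffix. Top2a, Cdk1, Nusap1, Aurkb and Ccnb1 are lower without a Ube2c UMI in each suffix, Hist1h2bc is higher, and Cenpa and Knstrn change little.

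Rank correlations of levels per 10000 UMIs across the 546 members, taken within suffixes, are a description over cells that share a library and differ in depth. The median Spearman rho was 0.70 for Cdk1 with Top2a, 0.63 for Top2a with Ube2c, 0.60 for Cdk1 with Ube2c and 0.45 for Ccnb1 with Ube2c. It was -0.33 for Hist1h2bc with Top2a and -0.37 for Hist1h2bc with Cdk1. Among the score genes the medians ran from -0.07 (Ube2c with Ccnb2) to 0.27 (Ube2c with Cdc20), and the cut itself bounds the sum of these genes from below.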

How the data were processed

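The deposited table holds counts: whole-number UMI counts of 27998 genes in 5664 barcodes, made by the authors from 10x Chromium 3′ libraries of sorted GFP+ cells. Cell Ranger 1.3, Seurat 2.3.4 and the mm10 build are named in the submitters' processing notes, while the gene annotation used for counting and its treatment of strand are not given in the sources used here. Barcode suffixes 1 to 4 are not tied to samples, so the planned comparisons of genotype and treatment were not made.

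The members and the gene lists were chosen with earlier results of these data known. Counts of kept cells were summed per suffix, separately for members and other cells, with Python 3.11.15, numpy 2.4.6, scipy 1.17.1 and pandas 2.3.3, and scaled to CPM by total UMIs. Kept cells held 7644436, 8327726, 9932649 and 8550371 UMIs in suffixes 1 to 4, and the lowest total of a barcode was 1189. Ratios are log2((CPM + 1)/(CPM + 1)), which understates the change of low genes, and a gene's value is the median over suffixes. A gene was measured with a mean of at least 10 CPM and counted as higher or lower where the ratio reached 1.5-fold in the same direction in each suffix, with score genes left out. In the Ube2c division the minimum for the counts of genes was 50 CPM, and some genes named there lay below it. Named genes were the score genes, the 12 highest and 12 lowest medians at 20 CPM or more, per list the 3 most abundant and the 3 others with the largest change, and Hif1a. Cdk1, Tubb4b and other genes outside this rule were named after their values were seen. Intervals are exact, at 95%, and cover counting error only. TMM factors were from edgeR 4.0.16 in R 4.3.3, doublet calls from Scrublet in scanpy 1.11.5, and figures from matplotlib 3.10.9. The counting steps were tested on simulated data. A result on 1 gene is not reported here.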

Additional observations from a re-analysis of the deposited data

Results flagged for a closer look

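Of the 208 barcodes left out because mitochondrially encoded genes held over 10% of their UMIs, 14 had a mitotic score at or above that of the lowest member, a share of 6.73% (exact binomial 95% interval 3.73 to 11.0). These barcodes drew attention because they carry the members' signal outside the cells that were analysed. Among kept cells the share was 10% by construction.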

How the results depend on the processing

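No named gene counted as higher or lower, and no list median past 1.5-fold, changed direction under any setting tried. The direction of the other genes counted as higher or lower was not checked. The number of genes higher in members (137) was 235 with no filter on low genes and 84 at 2-fold, and 152 to 170 without each suffix in turn. The number lower (89) was 194 with no filter, 45 with a pseudocount of 5 CPM and 19 at 2-fold, and 121 to 158 without each suffix in turn, with 145 without suffix 1 and 158 without suffix 2. Without a suffix the rule asks for agreement of 3, and a larger pseudocount or fold lowers the counts by construction. The shares of members in suffixes 1 to 4 became 6.90%, 5.995%, 3.20% and 4.62% when the highest 5% of cells were taken, and 29.9%, 26.1%, 12.9% and 14.5% with the highest 20%, where the cut itself sets the level. Thinning to 3000 UMIs gave 132 higher and 87 lower genes, of which 108 and 38 were among those of the main comparison. Median-of-ratios factors gave 119 and 115. Of the list medians, 739 stayed within the spread of the suffixes and 86 moved by more, and of the values of named genes 4079 and 271. No paired analysis was possible because the suffixes carry no replicate numbers and no sample labels that would pair genotype or treatment groups, while members and other cells were compared within suffixes throughout. The comparisons of groups that had been planned could not be run for the same reason. The depth of 99 to 170 members per suffix limits the values of genes under about 3 counts, such as Cd74 and Ccnd1.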

Other observations

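Genes in no list used here also differed, and they are named after their values were seen. Shcbp1, a protein of the central spindle, stood at 49.6, 47.6, 48.3 and 56.5 CPM in members of suffixes 1 to 4 and at 14.1, 9.42, 8.57 and 8.88 CPM in the other kept cells (median log2 ratio 2.29). Lockd, a long noncoding RNA, had 99.1, 96.9, 137 and 98.2 CPM in members and 31.3, 30.5, 22.3 and 15.1 CPM in the others (2.10). Kpna2, a nuclear import receptor, was at 1.83, Esco2, a cohesin acetyltransferase, at 1.82 and Neil3, a DNA glycosylase, at 1.79. Nucks1, a chromatin protein, stood at 244, 223, 285 and 371 CPM in members and at 97.9, 90.3, 85.8 and 91.9 CPM in the others (1.52).

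Lower genes in no list included Shmt1, Dctd and Impdh1, at -0.86, -1.02 and -0.87. Srm, spermidine synthase, stood at 79.1, 114, 27.8 and 50.6 CPM in members and at 209, 194, 77.4 and 78.0 CPM in the others (-1.08), and Gnl3, a nucleolar GTPase, was at -0.79. Cybb, a subunit of the phagocyte oxidase, was at -1.41 and Cd63, a granule membrane protein, at -1.08. These genes were picked from the lower list by eye, and no enrichment was tested.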
